A study of Mus musculus with 6 samples.

Results

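Genes for the enzymes that cut extracellular matrix and for their inhibitors were examined in lesional skin from a mouse model of psoriasis, after transfer of regulatory T cells (Tregs). The group was defined by gene name: all rows of the expression table for matrix metalloproteinases (Mmp), for ADAMTS enzymes and ADAMTS-like proteins (Adamts, Adamtsl) and for tissue inhibitors of metalloproteinases (Timp). It held 51 of the 35434 genes in the table, 23 of them MMP genes, 24 ADAMTS-family genes (19 enzymes and 5 ADAMTS-like) and 4 TIMP genes. Mice of the Lenv-Treg group received Tregs treated with lenvatinib, a kinase inhibitor that blocks VEGF and FGF receptors among others, and mice of the Ctrl-Treg group received control Tregs. Skin RNA was sequenced in 3 libraries per group. The sources used here give neither strain, age and mode of disease induction nor whether each library came from a separate mouse, and a p-value here measures only how far these libraries differ, which may in part be technical.

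Matrix metalloproteinases are zinc-dependent endopeptidases, made as inactive precursors, that cut collagens, laminins, elastin and many cell-surface and signalling proteins. In skin they take part in wound repair, in the entry of leukocytes and in the remodelling of the hair follicle. ADAMTS enzymes share the zinc-binding catalytic domain but carry thrombospondin repeats that anchor them to the matrix, and they cut proteoglycans such as aggrecan and versican, process procollagens or act on other matrix proteins. ADAMTS-like proteins have the anchoring repeats and no protease domain. TIMPs bind the active site of MMPs, and Timp3 also inhibits ADAMTS enzymes and sheddases of the ADAM family.

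The values were FPKM (fragments scaled by gene length and library size), in libraries of 38704536 to 40248462 assigned reads as recovered from the table. Genes with at least 0.5 FPKM in at least 3 libraries were tested with limma on log2(FPKM + 1), 13945 genes in all, and an adjusted p under 0.05 counted as a call. A difference is the Lenv-Treg mean minus the Ctrl-Treg mean on that log2 scale, which understates changes of low genes, and ratios are of mean FPKM. Over all tested genes 41.7% were called, 11% higher and 30.8% lower in Lenv-Treg skin, and the median difference was -0.17. That median was -0.44 after rescaling to TPM and -0.0019 after median-of-ratios scaling, so each difference below is to be read against this shift. Without Lenv-Treg replicate 2 the count of lower genes was 2780 instead of 4289. By its title the series concerns a greater anti-inflammatory action of Tregs exposed to lenvatinib. In the libraries labelled Lenv-Treg, 14 of 15 tested neutrophil markers were nevertheless higher and 0 lower, their summed level being 535 to 1006 FPKM in Lenv-Treg skin and 81.2 to 83.1 FPKM in Ctrl-Treg skin. No gene of the table shows which cells a mouse had received, so groups are those of the labels. The skin label was borne out by basal keratinocyte markers, with Krt5 at 1629 ± 75.8 FPKM in Lenv-Treg skin and 865 ± 74.3 FPKM in Ctrl-Treg skin (SD, n = 3 each). Across genes, libraries of the same group correlated at 0.984 to 0.992 (Pearson) and libraries of different groups at 0.897 to 0.939.

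Of the 51 genes, 34 passed the filter on low values and 17 did not. Among the 34, 11 were higher and 10 lower in Lenv-Treg skin, and 13 did not pass the test, beside the 41.7% called among all tested genes. The groups did not overlap for 21 of the 34, beside 55.4% of all tested genes. For 3 genes (Mmp8, Mmp16 and Adamts18) 1 group lay wholly below the filter's minimum, so that they entered the test only through the group where they were high. The same held for some genes of the other lists, such as Ly6g and Trem1 of neutrophils and Shh and Lef1 of the hair follicle. Il17a and Il22 among the cytokines, and Acan and Fbn2 among the matrix substrates, were others. The median difference of the 34 was -0.21, near that of all tested genes, while the median size of the difference regardless of sign was 0.63 against 0.29 for all tested genes. At a difference of at least 1 the calls were 8 higher and 4 lower among the 34 genes, beside 3.76% and 5.85% of all tested genes.

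The families differed in the balance of these calls, a description that was not tested as such. Among all tested genes 11% were higher and 30.8% lower. Of 16 tested MMP genes 6 were higher, 4 lower and 6 did not pass, with a median of 0.03 and a range of -0.90 to 3.48. On this scale, which understates changes of low genes, all 6 higher MMP genes differed by more than 1, and none of the 4 lower ones did. As ratios of mean FPKM, the 4 lower ones stood at 0.207 (Mmp16), 0.496 (Mmp23), 0.513 (Mmp27) and 0.559 (Mmp17). Of 14 tested ADAMTS-family genes 3 were higher, 5 lower and 6 did not pass, with a median of -0.33 and a range of -1.64 to 1.19. Of the 4 TIMP genes 2 were higher, 1 lower and 1 did not pass, with a median of 0.07 and a range of -1.52 to 2.25. The TIMP median, of 4 genes, changed sign after rescaling to TPM (-0.19), as did the MMP median (-0.21), and without 1 library (-0.032 without Ctrl-Treg replicate 2 for TIMP and -0.066 without Ctrl-Treg replicate 3 for MMP genes), while the ADAMTS median was -0.62 in TPM and -0.16 after median-of-ratios scaling.

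**Figure D1:**
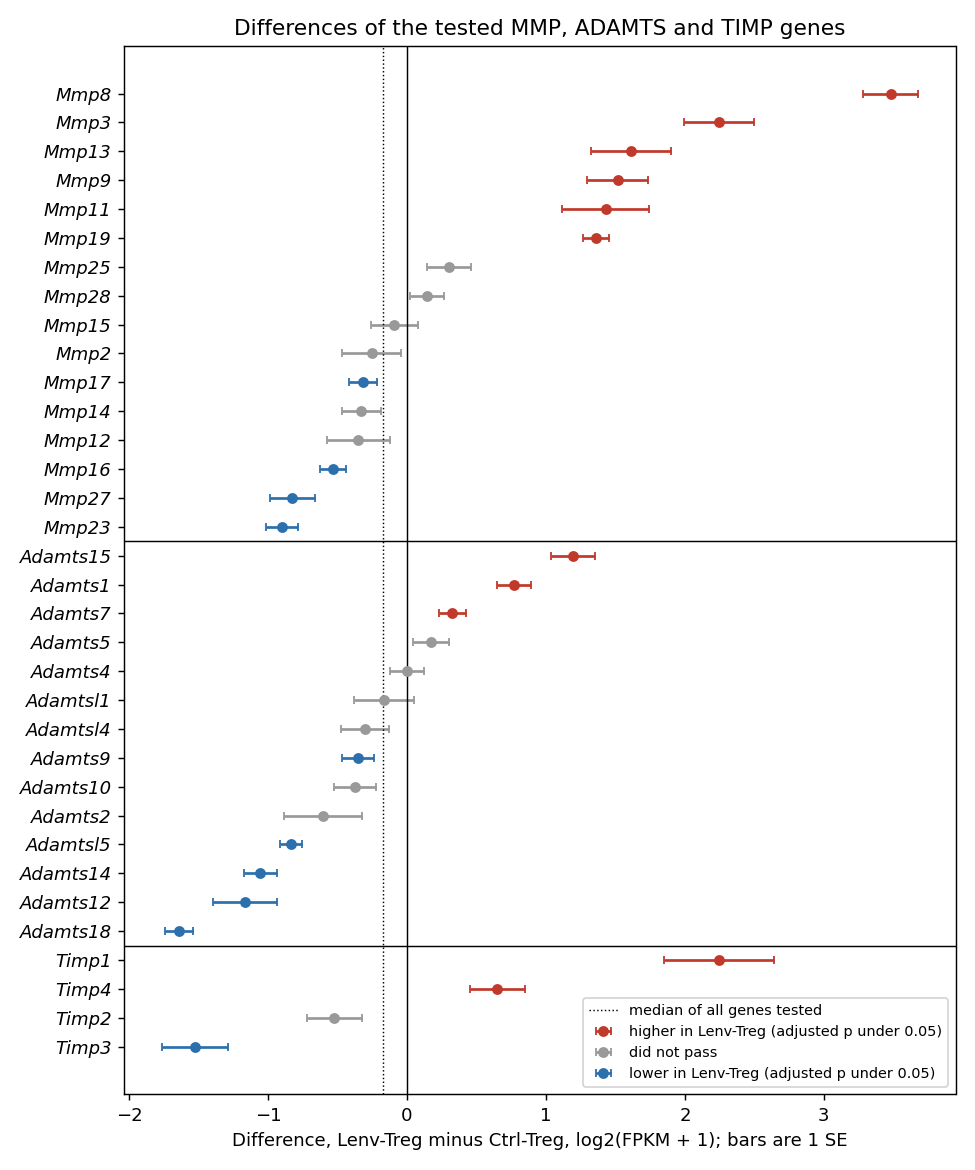
Differences of the 34 tested genes (Lenv-Treg minus Ctrl-Treg, log2(FPKM + 1), horizontal axis; points with bars of 1 SE) in MMP, ADAMTS-family and TIMP genes from top to bottom. Red points were called higher and blue points lower in Lenv-Treg skin, grey points did not pass, and the dotted line is the median of all tested genes (-0.17). The 6 red MMP genes lie above 1, whereas ADAMTS-family genes reach from -1.64 to 1.19.

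Collagenases, which can cut the triple helix of fibrillar collagen, included the largest difference of the 34 tested genes. Mmp8, the neutrophil collagenase stored in granules, was at 9.81, 16.7 and 13.4 FPKM in Lenv-Treg skin, against 0.446, 0.0625 and 0.284 FPKM in Ctrl-Treg skin. The groups were far apart, at a ratio of 50.2 (log2 difference 3.48, SE 0.20, adjusted p = 4.13e-05), and the ratio was 76.5 without Ctrl-Treg replicate 1, the highest control. Mmp13, the main interstitial collagenase of rodents, was at 2.86, 4.39 and 6.003 FPKM in Lenv-Treg skin, against 1.5047, 0.573 and 0.299 FPKM in Ctrl-Treg skin. Every Lenv-Treg library lay above every control, at a ratio of 5.58 (log2 difference 1.61, SE 0.29, adjusted p = 0.00407) that became 10.1 without Ctrl-Treg replicate 1. Mmp1a and Mmp1b, close copies of one another between which reads may have been split, stayed below the filter. Mmp1a had 2, 24 and 14 reads in Lenv-Treg libraries and 4, 0 and 0 reads in Ctrl-Treg libraries (exact permutation p = 0.2). Mmp1b had 14, 24 and 38 reads in Lenv-Treg libraries and 10, 0 and 0 reads in Ctrl-Treg libraries (exact permutation p = 0.1, the smallest that 3 against 3 libraries allow).

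Stromelysins cut proteoglycans, laminin and fibronectin and activate other MMPs. Mmp3, stromelysin 1, was at 198, 303 and 379 FPKM in Lenv-Treg skin, against 73.6, 49.5 and 56.4 FPKM in Ctrl-Treg skin. It rose 4.90-fold (log2 difference 2.24, SE 0.25, adjusted p = 0.000572) and, among the 3 MMP genes with the highest mean level, it was the one that changed. Mmp11, stromelysin 3, which cuts matrix proteins poorly and is activated inside the cell by furin, was at 51.0, 21.9 and 39.8 FPKM in Lenv-Treg skin, against 17.1, 9.94 and 11.5 FPKM in Ctrl-Treg skin. The Lenv-Treg libraries were widely spread but all above the controls, at a ratio of 2.92 (log2 difference 1.43, SE 0.31, adjusted p = 0.00969). Mmp10, stromelysin 2, a product of keratinocytes at wound edges, was below the filter with 18, 33 and 35 reads in Lenv-Treg libraries and 5, 4 and 0 reads in Ctrl-Treg libraries. Its levels of 0.414 ± 0.135 FPKM in Lenv-Treg skin and 0.0435 ± 0.0382 FPKM in Ctrl-Treg skin (SD, n = 3 each) did not overlap (exact permutation p = 0.1), and limma without a low-value filter called it higher (log2 difference 0.43, adjusted p = 0.0128).

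Gelatinases cut denatured collagen and basement membrane collagen. Mmp9, which neutrophils, macrophages and keratinocytes release, was at 7.63, 12.2 and 10.038 FPKM in Lenv-Treg skin, against 3.90, 2.75 and 1.91 FPKM in Ctrl-Treg skin. It rose 3.49-fold (log2 difference 1.52, SE 0.22, adjusted p = 0.00167), and the groups did not overlap. Mmp2, made mainly by fibroblasts, was about as abundant as any gene of the group, at 247, 190.4 and 168 FPKM in Lenv-Treg skin, against 311, 204 and 212 FPKM in Ctrl-Treg skin. Its groups overlapped, and it did not pass (log2 difference -0.25, SE 0.21, adjusted p = 0.358). Mmp12, the macrophage elastase, was at 1.49 ± 0.297 FPKM in Lenv-Treg skin and 2.26 ± 0.969 FPKM in Ctrl-Treg skin (SD, n = 3 each) and did not pass (-0.35, adjusted p = 0.249), although it was called lower without Ctrl-Treg replicate 2 (-0.61, adjusted p = 0.0179). Monocyte and macrophage markers were mixed in these libraries, with 8 of 16 higher and 2 lower, beside 11% and 30.8% of all tested genes. Their summed levels were 2201 to 2333 FPKM in Lenv-Treg skin and 1466 to 1949 FPKM in Ctrl-Treg skin.

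Neutrophil markers were higher in the same libraries. Retnlg, a gene of mature neutrophils, was at 172, 359 and 237 FPKM in Lenv-Treg skin, against 2.45, 1.60 and 1.61 FPKM in Ctrl-Treg skin, and Stfa2l1 at 72.4, 144 and 118 FPKM in Lenv-Treg skin, against 0.900, 1.67 and 0.811 FPKM in Ctrl-Treg skin. Mpo, a gene of neutrophil precursors, was at or near 0 in all 6 libraries, and Mrgpra2b had no read in the Ctrl-Treg libraries. Mmp25, a membrane-anchored MMP of neutrophils, was at 0.664, 1.24 and 0.965 FPKM in Lenv-Treg skin, against 0.912, 0.435 and 0.424 FPKM in Ctrl-Treg skin, with overlapping groups (0.30, adjusted p = 0.158), and it was called without Ctrl-Treg replicate 1 (0.44, adjusted p = 0.0487) and under quantile normalization (0.58, adjusted p = 0.0435). The part of neutrophils in the differences of Mmp8, Mmp9 and Mmp25 was not tested. In bulk skin, fewer cells of a type and less RNA per cell cannot be told apart, and neither can more cells and more RNA per cell.

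**Figure D2:**
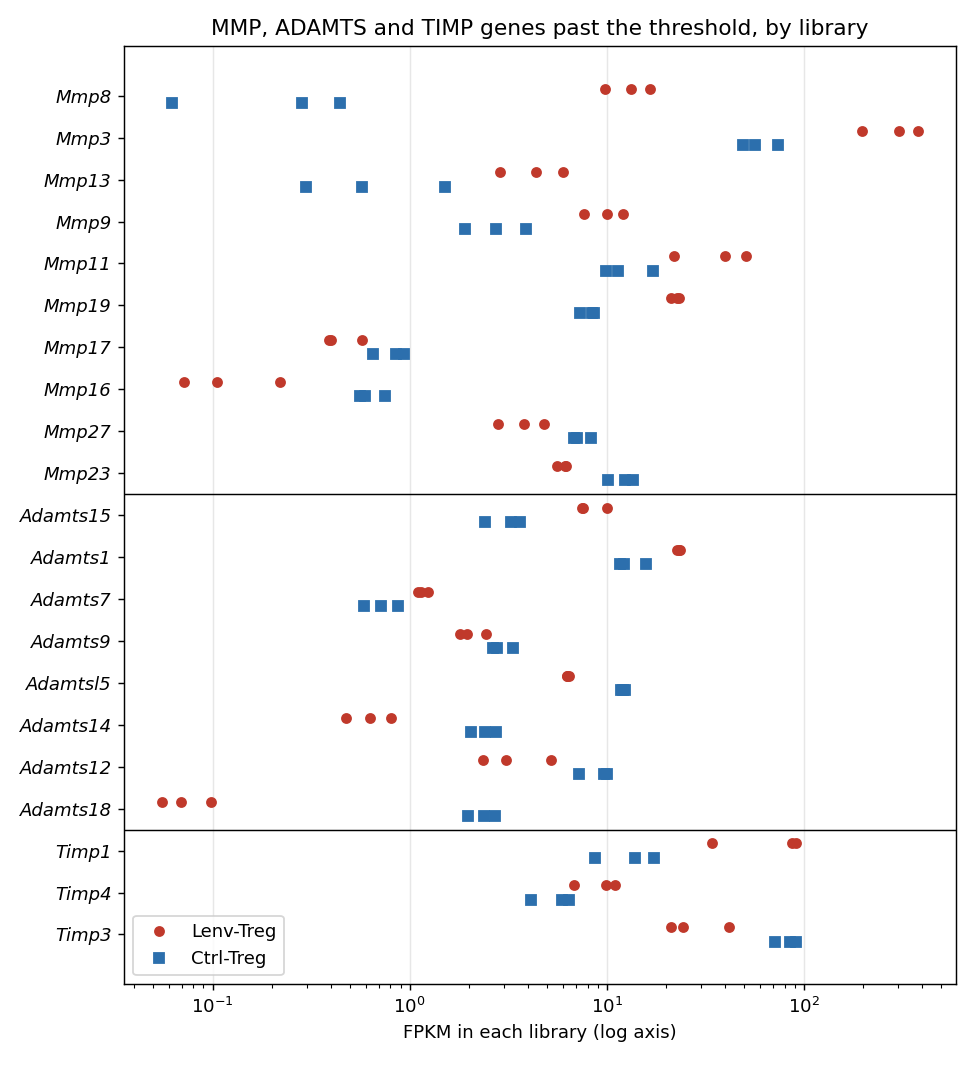
FPKM (log axis) of the 21 called genes in each library, by family from top to bottom (MMP, ADAMTS and ADAMTS-like, TIMP) and by difference within a family; red circles are Lenv-Treg and blue squares Ctrl-Treg libraries. The groups are disjoint in all 21 genes, which were chosen by the test on these same values, beside 55.4% of all tested genes. The widest gap is that of Mmp8, at 9.81 FPKM or more in Lenv-Treg and 0.446 FPKM or less in Ctrl-Treg libraries.

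Membrane-type MMPs are held at the cell surface, where Mmp14 activates the Mmp2 precursor together with Timp2. Mmp14 was at 149, 142 and 166 FPKM in Lenv-Treg skin, against 219.6, 165 and 193 FPKM in Ctrl-Treg skin. The groups overlapped and the gene did not pass (log2 difference -0.33, SE 0.14, adjusted p = 0.0947), although it was called lower after rescaling to TPM (-0.62, adjusted p = 0.0054), under quantile normalization (-0.51, adjusted p = 0.0211) and without Ctrl-Treg replicate 2 (-0.44, adjusted p = 0.0497). Mmp15 was at 3.44 ± 0.314 FPKM in Lenv-Treg skin and 3.81 ± 1.08 FPKM in Ctrl-Treg skin (SD, n = 3 each) and did not pass (-0.09, adjusted p = 0.693). Mmp16 was at 0.219, 0.105 and 0.0714 FPKM in Lenv-Treg skin, against 0.597, 0.563 and 0.752 FPKM in Ctrl-Treg skin. It was lower in all Lenv-Treg libraries (log2 difference -0.53, SE 0.09, adjusted p = 0.00376), a call that ended after quantile normalization (-0.24, adjusted p = 0.0907). Mmp17, a GPI-anchored member, was lower by a small margin (-0.32, adjusted p = 0.0387), and the call ended after median-of-ratios scaling (-0.24, adjusted p = 0.101), under quantile normalization (-0.068, adjusted p = 0.624) and without Ctrl-Treg replicate 1 or 2 or Lenv-Treg replicate 2 or 3 (adjusted p up to 0.12). Mmp24 had 10 to 13 reads in Lenv-Treg libraries and 12 to 25 reads in Ctrl-Treg libraries.

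The remaining MMPs split. Mmp19, an enzyme of epidermis and vessels that cuts basement membrane proteins, was at 23.3, 22.8 and 21.1 FPKM in Lenv-Treg skin, against 8.44, 7.31 and 8.59 FPKM in Ctrl-Treg skin. It was 2.76-fold higher with little spread in either group (log2 difference 1.36, SE 0.10, adjusted p = 0.000103). Mmp23, a short membrane-linked MMP without the hemopexin domain, was at 6.12, 6.20 and 5.58 FPKM in Lenv-Treg skin, against 10.2, 12.3 and 13.6 FPKM in Ctrl-Treg skin. It was lower in every Lenv-Treg library, at a ratio of 0.496 (log2 difference -0.90, SE 0.12, adjusted p = 0.00109). Mmp27, a little-studied member, was at 4.80, 3.80 and 2.82 FPKM in Lenv-Treg skin, against 8.34, 6.81 and 7.08 FPKM in Ctrl-Treg skin, again with no overlap (log2 difference -0.82, SE 0.16, adjusted p = 0.00632). Mmp28, epilysin, an MMP of resting keratinocytes, was at 3.01 ± 0.151 FPKM in Lenv-Treg skin and 2.65 ± 0.507 FPKM in Ctrl-Treg skin (SD, n = 3 each) and did not pass (0.14, adjusted p = 0.365), although quantile normalization called it higher (0.40, adjusted p = 0.0308) and TPM values turned its sign (-0.078). Mmp20, the enamel protease, had 0 reads in Lenv-Treg libraries and 1, 3 and 3 reads in Ctrl-Treg libraries; 3 reads over the Lenv-Treg group, the floor that a count of 0 allows, would correspond to 0.00763 FPKM, a limit that covers counting error only. Mmp7, matrilysin, and Mmp21 had no read in any library.

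The make-up of MMP transcripts differed more between groups than their sum. Summed MMP expression was 709, 735 and 822 FPKM in Lenv-Treg skin, against 666, 469 and 515 FPKM in Ctrl-Treg skin. Without Mmp2 and Mmp14 the sum was 313, 402 and 488 FPKM in Lenv-Treg skin and 136, 100.4 and 109 FPKM in Ctrl-Treg skin. Mmp3 made up 27.9%, 41.2% and 46.1% of the MMP sum in Lenv-Treg skin, against 11.1%, 10.5% and 11.0% in Ctrl-Treg skin. Mmp2 made up 20.4% to 34.8% in Lenv-Treg skin and 41.1% to 46.7% in Ctrl-Treg skin, and Mmp14 19.3% to 21.0% in Lenv-Treg skin and 33.0% to 37.6% in Ctrl-Treg skin. These shares are of FPKM values, which are per gene length, and none was tested.

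**Figure D3:**
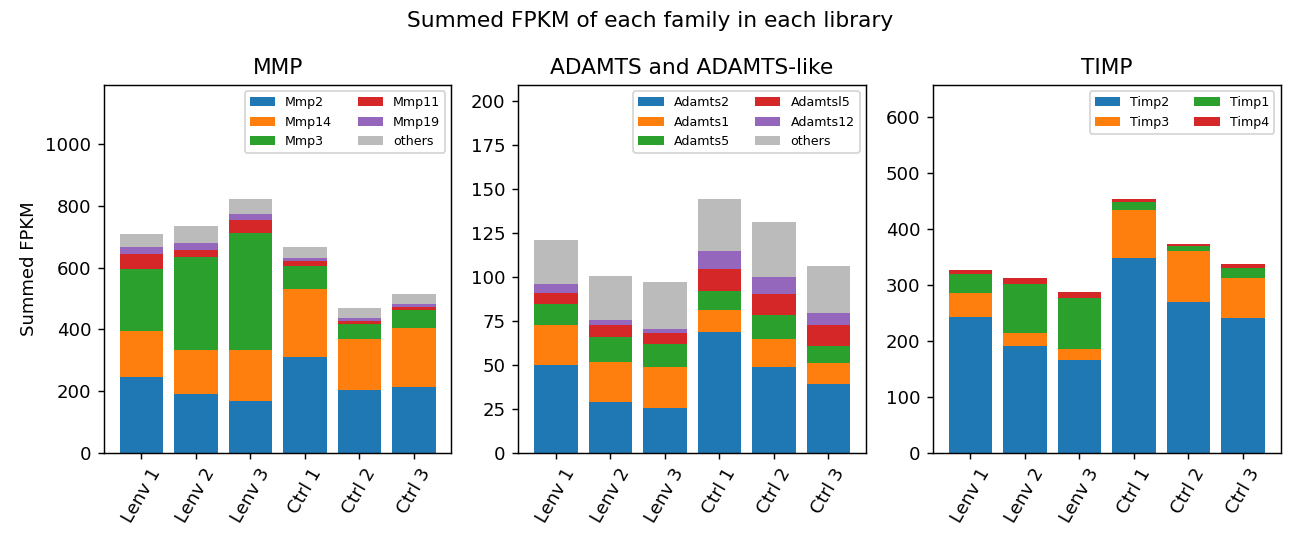
Summed FPKM (vertical axis) of MMP, ADAMTS-family and TIMP genes in each library, Lenv-Treg libraries left of Ctrl-Treg libraries, with bars divided by gene. Mmp3 takes 27.9% to 46.1% of the MMP bars of Lenv-Treg libraries and 10.5% to 11.1% of those of Ctrl-Treg libraries; for Timp1 and the TIMP bars the shares are 10.5% to 31.7% in Lenv-Treg libraries and 2.33% to 5.19% in Ctrl-Treg libraries.

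Of the MMP genes, 10 follow one another directly on mouse chromosome 9, in the order Mmp13, Mmp12, Mmp1b, Mmp3, Mmp1a, Mmp10, Mmp8, Mmp27, Mmp20 and Mmp7 (protein-coding genes of RefSeq, assembly GRCm38.p6, used for neighbourhood only). Their levels and differences were not shared along the row. Mmp13, Mmp3 and Mmp8 were higher in Lenv-Treg skin, Mmp27 next to Mmp8 was lower, and Mmp12 between Mmp13 and Mmp1b did not pass. Adamts1 and Adamts5 are likewise neighbours on chromosome 16, where Adamts1 was higher and Adamts5 did not pass, and Adamts15 and Adamts8 on chromosome 9, where Adamts15 was higher and Adamts8 lay below the filter.

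**Figure D4:**
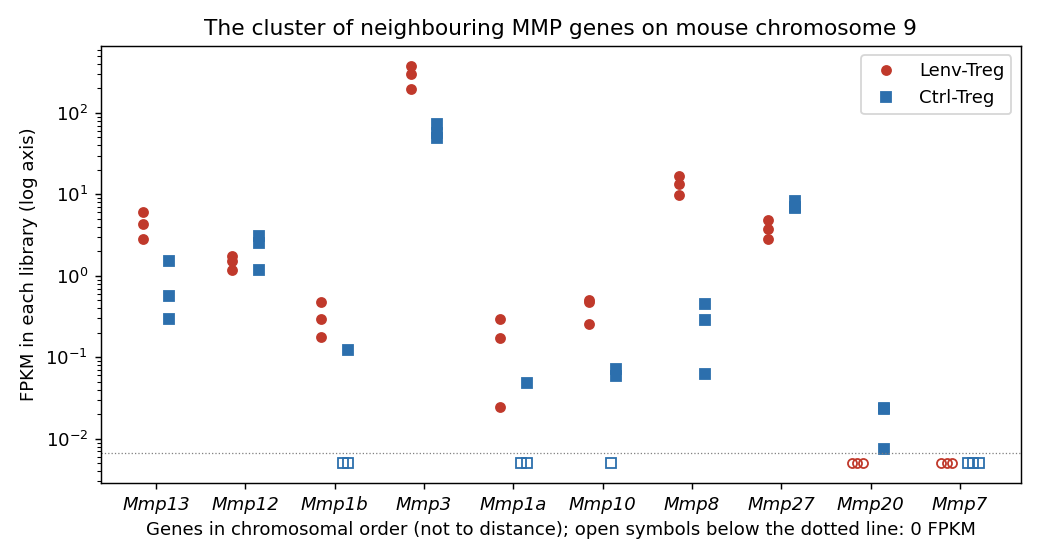
FPKM in each library (log axis) of the 10 neighbouring MMP genes of chromosome 9, in chromosomal order and not to distance; red circles are Lenv-Treg and blue squares Ctrl-Treg libraries, and open symbols under the dotted line are values of 0. Mmp13, Mmp3 and Mmp8 are higher and Mmp27 lower in Lenv-Treg libraries, while Mmp7 is at 0 throughout.

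Promoters of 4 cluster genes with higher levels in Lenv-Treg skin (Mmp10 among them, though below the filter) are shown with their lower neighbour Mmp27 and with abundant genes that did not pass, since genes of the cluster are known to be induced through AP-1. They are RefSeq sequences of assembly GRCm38.p6, from 250 bases before to 50 bases after the annotated start, 5′ to 3′. In the first 5 the capitals mark the AP-1 motif TGAGTCA and the TATA motif TATAAA, each searched on both strands, so that TGACTCA and TTTATA are also marked. In the last pair they mark the GC box GGGCGG, or CCGCCC on the other strand.
Mmp3, chr9:7445572-7445871, plus strand: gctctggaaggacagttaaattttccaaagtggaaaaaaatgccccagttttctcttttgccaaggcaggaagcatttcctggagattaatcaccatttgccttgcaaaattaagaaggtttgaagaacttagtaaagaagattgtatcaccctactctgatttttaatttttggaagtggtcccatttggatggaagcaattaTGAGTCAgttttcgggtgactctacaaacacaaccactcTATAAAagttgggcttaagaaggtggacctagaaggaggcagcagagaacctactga
Mmp10, chr9:7502092-7502391, plus strand: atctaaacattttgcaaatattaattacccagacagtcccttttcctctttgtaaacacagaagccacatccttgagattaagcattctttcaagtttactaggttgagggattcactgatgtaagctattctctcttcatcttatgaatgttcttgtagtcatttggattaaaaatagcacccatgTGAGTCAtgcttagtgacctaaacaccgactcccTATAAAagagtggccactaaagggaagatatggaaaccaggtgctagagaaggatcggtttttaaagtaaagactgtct
Mmp13, chr9:7272264-7272563, plus strand: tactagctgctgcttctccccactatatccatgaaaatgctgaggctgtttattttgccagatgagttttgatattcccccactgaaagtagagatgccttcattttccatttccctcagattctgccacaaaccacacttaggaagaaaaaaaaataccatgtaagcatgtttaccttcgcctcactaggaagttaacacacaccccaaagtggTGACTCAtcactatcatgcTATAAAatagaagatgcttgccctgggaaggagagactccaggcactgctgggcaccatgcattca
Mmp8, chr9:7558179-7558478, plus strand: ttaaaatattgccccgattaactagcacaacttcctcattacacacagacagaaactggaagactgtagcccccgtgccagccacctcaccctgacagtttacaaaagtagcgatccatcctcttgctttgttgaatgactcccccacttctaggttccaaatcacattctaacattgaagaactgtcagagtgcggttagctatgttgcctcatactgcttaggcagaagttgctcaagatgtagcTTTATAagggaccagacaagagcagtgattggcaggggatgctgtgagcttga
Mmp27, chr9:7571146-7571445, plus strand: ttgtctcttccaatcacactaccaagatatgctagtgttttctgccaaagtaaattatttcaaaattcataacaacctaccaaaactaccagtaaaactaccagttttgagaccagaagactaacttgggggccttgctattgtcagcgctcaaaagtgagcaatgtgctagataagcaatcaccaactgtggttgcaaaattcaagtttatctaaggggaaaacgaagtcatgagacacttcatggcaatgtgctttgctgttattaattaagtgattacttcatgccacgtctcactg
Mmp14, chr14:54431348-54431647, plus strand: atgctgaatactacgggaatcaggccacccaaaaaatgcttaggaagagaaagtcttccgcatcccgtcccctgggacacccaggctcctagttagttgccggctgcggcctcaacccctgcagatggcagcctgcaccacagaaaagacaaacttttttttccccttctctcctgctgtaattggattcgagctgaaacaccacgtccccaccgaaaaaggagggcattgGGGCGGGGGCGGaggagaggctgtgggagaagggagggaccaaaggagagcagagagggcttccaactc
Timp2, chr11:118355362-118355661, minus strand: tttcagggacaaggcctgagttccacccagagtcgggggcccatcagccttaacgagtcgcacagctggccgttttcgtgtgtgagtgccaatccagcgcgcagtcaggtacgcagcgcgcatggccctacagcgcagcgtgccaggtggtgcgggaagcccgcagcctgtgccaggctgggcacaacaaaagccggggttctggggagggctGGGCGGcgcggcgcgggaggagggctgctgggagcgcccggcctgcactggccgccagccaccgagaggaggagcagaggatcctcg

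A promoter entry was matched for 36 of the 51 genes. The AP-1 motif was in 6 of the 36, all of them MMP genes of the chromosome 9 cluster (Mmp1a, Mmp1b, Mmp3, Mmp7, Mmp10 and Mmp13), and in 5.17% of all 27025 promoters. Each of these 6 also held the TATA motif downstream of it, which 11 of the 36 and 14.2% of all promoters held. Of the 7 matched genes called higher, 2 held the AP-1 motif and 4 the TATA motif. Of the 8 matched genes called lower, 0 held either, and the same was true of the 8 matched genes that were tested and did not pass. Of the 13 matched genes below the filter, 4 held the AP-1 motif and 7 the TATA motif. The GC box was in 6 of 18 matched MMP genes, 12 of 14 ADAMTS-family genes and 3 of 4 TIMP genes, beside 35.9% of all promoters. The motif AGGAAG, or CTTCCT on the other strand, a core bound by ETS factors, was in 10 of 18 MMP genes, 2 of 14 ADAMTS-family genes and 3 of 4 TIMP genes, beside 35.1% of all promoters. Mmp7 held the AP-1 and TATA motifs and had no read, and Mmp8 was the most changed gene and held no AP-1 motif in this window. A match describes letters in the window and not a bound site.

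Of 16 genes for AP-1, ETS and related factors that act on MMP promoters, all tested, 5 were higher and 2 lower, a share near the 41.7% called among all tested genes. Fos, an AP-1 subunit, was at 340.1, 181 and 339 FPKM in Lenv-Treg skin, against 171, 108 and 86.0 FPKM in Ctrl-Treg skin (1.23, adjusted p = 0.019), and Junb, another AP-1 subunit, at 214, 179 and 245 FPKM in Lenv-Treg skin, against 115, 81.0 and 73.9 FPKM in Ctrl-Treg skin (1.25, adjusted p = 0.0023). The call of Fos ended without the filter (adjusted p = 0.0587). Of the other AP-1 subunits listed, Fosl1 was higher (1.48, adjusted p = 0.00126), and Fosb, Fosl2, Jun and Jund did not pass (adjusted p of 0.0596 to 0.189). Elf3, an epithelial ETS factor, was higher (1.37, adjusted p = 0.00063), as was Stat3 (0.76, adjusted p = 0.00124). The 2 lower genes were Etv5 (-0.54, adjusted p = 0.00604) and Runx2 (-0.52, adjusted p = 0.00505). Of 17 cytokines and growth factors that induce or repress MMP genes, 11 were higher and 2 lower, beside 11% and 30.8% of all tested genes. Their part in the differences of MMP genes was not tested. The summed levels of the 17 were 367 to 594 FPKM in Lenv-Treg skin and 75.8 to 94.9 FPKM in Ctrl-Treg skin. Il1b led with 192, 376 and 372 FPKM in Lenv-Treg skin, against 6.34, 4.33 and 3.68 FPKM in Ctrl-Treg skin. Hbegf (2.73) and Areg (2.63), ligands of the EGF receptor, were also higher, and Tgfb1, whose product represses several MMP genes and induces others, did not pass (0.37, adjusted p = 0.0687).

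ADAMTS enzymes that cut aggrecan and versican differed among themselves. Adamts1 was at 23.2, 22.6 and 23.6 FPKM in Lenv-Treg skin, against 12.3, 15.8 and 11.6 FPKM in Ctrl-Treg skin. It rose 1.75-fold with almost no spread in Lenv-Treg skin (log2 difference 0.77, SE 0.12, adjusted p = 0.0024). Adamts15 was at 7.51, 7.57 and 10.1 FPKM in Lenv-Treg skin, against 3.64, 3.26 and 2.41 FPKM in Ctrl-Treg skin, 2.70-fold higher without overlap (log2 difference 1.19, SE 0.16, adjusted p = 0.00108). Adamts5, a main aggrecanase, was at 11.5, 14.3 and 13.3 FPKM in Lenv-Treg skin, against 11.2, 13.4 and 9.89 FPKM in Ctrl-Treg skin and did not pass (log2 difference 0.17, SE 0.13, adjusted p = 0.315). Adamts4, another aggrecanase, had means of 3.31 ± 0.546 FPKM in Lenv-Treg skin and 3.29 ± 0.354 FPKM in Ctrl-Treg skin (SD, n = 3 each; adjusted p = 0.999). Adamts9 was slightly lower (-0.35, adjusted p = 0.0465), a call that ended without any 1 library other than Lenv-Treg replicate 2 (adjusted p up to 0.138), after median-of-ratios scaling (-0.20, adjusted p = 0.224), after quantile normalization (-0.079, adjusted p = 0.641) and without the filter (adjusted p = 0.107). Adamts20, whose mutation causes the belted coat of mice, was below the filter at 0.0421, 0.0323 and 0.0541 FPKM in Lenv-Treg skin, against 0.325, 0.571 and 0.589 FPKM in Ctrl-Treg skin (exact permutation p = 0.1). Adamts8 was below the filter too, at 0.132 ± 0.0341 FPKM in Lenv-Treg skin and 0.237 ± 0.0795 FPKM in Ctrl-Treg skin (SD, n = 3 each; exact permutation p = 0.2).

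Procollagen N-propeptidases trim the amino-terminal propeptide of fibrillar procollagens. Adamts2, the most abundant ADAMTS gene, was at 49.7, 29.1 and 25.2 FPKM in Lenv-Treg skin, against 68.8, 48.9 and 39.2 FPKM in Ctrl-Treg skin. The groups overlapped and it did not pass (log2 difference -0.60, SE 0.28, adjusted p = 0.125), but it was called lower without Lenv-Treg replicate 1 (-0.89, adjusted p = 0.0272) and in TPM (-0.90, adjusted p = 0.0397). Adamts14 was at 0.809, 0.475 and 0.631 FPKM in Lenv-Treg skin, against 2.05, 2.75 and 2.41 FPKM in Ctrl-Treg skin, all lower in Lenv-Treg skin (log2 difference -1.05, SE 0.12, adjusted p = 0.000583). Adamts3, below the filter, was at 0.0512, 0.0539 and 0.0182 FPKM in Lenv-Treg skin, against 0.209, 0.314 and 0.305 FPKM in Ctrl-Treg skin, also without overlap (exact permutation p = 0.1). Genes of fibrillar collagen were lower as well. Col1a2, a chain of collagen I, was at 563, 337 and 266 FPKM in Lenv-Treg skin, against 1505, 1282 and 1159 FPKM in Ctrl-Treg skin (-1.82, adjusted p = 0.00217), and Col3a1 at 812, 607 and 522 FPKM in Lenv-Treg skin, against 1097, 1090.4 and 826 FPKM in Ctrl-Treg skin (-0.65, adjusted p = 0.0465). In limma without the filter Col1a2 kept its call (adjusted p = 0.0125) and Col3a1 did not (adjusted p = 0.114).

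Of the 9 other ADAMTS enzymes, 4 were tested, of which 1 was higher, 2 were lower and 1 did not pass, beside 41.7% called among all tested genes. Adamts18, an orphan enzyme with few known substrates, was at 0.0983, 0.0689 and 0.0555 FPKM in Lenv-Treg skin, against 2.37, 1.99 and 2.71 FPKM in Ctrl-Treg skin. It showed the largest decrease of the 34 tested genes, to a ratio of 0.0315 (log2 difference -1.64, SE 0.10, adjusted p = 6.55e-05). Adamts12, which cuts cartilage oligomeric matrix protein, was at 5.23, 3.10 and 2.36 FPKM in Lenv-Treg skin, against 10.002, 9.71 and 7.22 FPKM in Ctrl-Treg skin (log2 difference -1.16, SE 0.23, adjusted p = 0.00651). Its close relative Adamts7 was higher by a small margin, at 1.16 ± 0.0756 FPKM in Lenv-Treg skin and 0.727 ± 0.142 FPKM in Ctrl-Treg skin (SD, n = 3 each; 0.33, adjusted p = 0.0278), and this call ended after rescaling to TPM (0.25, adjusted p = 0.139) and without any 1 of 5 libraries, all but Ctrl-Treg replicate 1 (adjusted p up to 0.0925). Adamts10, which acts on fibrillin microfibrils, did not pass (-0.37, adjusted p = 0.0847), and was called lower in TPM (-0.67, adjusted p = 0.014) and without Ctrl-Treg replicate 1 (-0.48, adjusted p = 0.0484). Adamts17 was just below the filter, at 0.0272, 0.0614 and 0.0275 FPKM in Lenv-Treg skin, against 0.509, 0.498 and 0.575 FPKM in Ctrl-Treg skin, and Adamts19 far below it, at 0.00508, 0.00505 and 0.0103 FPKM in Lenv-Treg skin, against 0.0732, 0.101 and 0.163 FPKM in Ctrl-Treg skin; neither overlapped (exact permutation p = 0.1 each). Adamts6 was at 0.208 ± 0.0200 FPKM in Lenv-Treg skin and 0.277 ± 0.0920 FPKM in Ctrl-Treg skin (SD, n = 3 each; exact permutation p = 0.2). Adamts13, the protease of von Willebrand factor, and Adamts16 had at most 6 reads in any library.

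Of the 17 genes below the filter, 10 were ADAMTS-family and 7 MMP genes. When limma was run without that filter, 4 of them were lower in Lenv-Treg skin, namely Adamts17 (-0.56, adjusted p = 0.000805), Adamts3 (-0.29, adjusted p = 0.00532), Adamts20 (-0.51, adjusted p = 0.00734) and Adamts19 (-0.14, adjusted p = 0.0236), and Mmp10 was higher. With these, the count of lower ADAMTS-family genes in the fit without a filter was 8. Over all genes with any value above 0, that fit called 1482 higher and 4099 lower. Hair follicle markers were lower in Lenv-Treg skin in 10 of 11 genes and higher in 0, beside 30.8% and 11% of all tested genes. Their summed levels were 6.46 to 22.4 FPKM in Lenv-Treg skin and 1320.2 to 2886 FPKM in Ctrl-Treg skin. Within the Ctrl-Treg group these markers were lowest in replicate 1, where Krt71 was at 458 FPKM against 1026 and 1007 FPKM in replicates 2 and 3. Among the ADAMTS-family genes called lower with or without the filter, Adamts3, Adamts9, Adamts14, Adamts19 and Adamts20 were lowest of their group in that library, and Adamts12, Adamts17, Adamts18 and Adamtsl5 were not. This order of 3 libraries was not tested or set beside that of all genes, so nothing is concluded from it. Markers of Schwann cells and melanocytes were lower in 7 of 9 genes, beside 30.8% of all tested genes. Their summed levels were 38.7 to 50.3 FPKM in Lenv-Treg skin and 178 to 224 FPKM in Ctrl-Treg skin. The part of either cell group in the decreases of Adamts genes was not tested.

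Of 3 tested ADAMTS-like genes 1 was lower, 0 were higher and 2 did not pass, beside 41.7% called among all tested genes. Adamtsl5 was at 6.33, 6.44 and 6.26 FPKM in Lenv-Treg skin, against 12.4, 12.1 and 11.8 FPKM in Ctrl-Treg skin. It was lower with very little spread in either group (log2 difference -0.83, SE 0.08, adjusted p = 0.000297). Adamtsl4, which binds fibrillin microfibrils, was at 4.94, 4.38 and 3.89 FPKM in Lenv-Treg skin, against 6.35, 6.84 and 4.08 FPKM in Ctrl-Treg skin and did not pass (-0.30, adjusted p = 0.199), although it was called lower without Ctrl-Treg replicate 3 (-0.49, adjusted p = 0.0248). Adamtsl1 was at 1.91 ± 0.645 FPKM in Lenv-Treg skin and 2.26 ± 0.713 FPKM in Ctrl-Treg skin (SD, n = 3 each; -0.16, adjusted p = 0.565). Adamtsl2 and Adamtsl3 stayed below the filter, with overlapping groups. Adamtsl2 was at 0.309 ± 0.0701 FPKM in Lenv-Treg skin and 0.217 ± 0.0920 FPKM in Ctrl-Treg skin, and Adamtsl3 was at 0.145 ± 0.0460 FPKM in Lenv-Treg skin and 0.254 ± 0.113 FPKM in Ctrl-Treg skin (SD, n = 3 each; exact permutation p = 0.3 each). The summed ADAMTS-family level was 121, 101 and 97.1 FPKM in Lenv-Treg skin, against 144, 131 and 106 FPKM in Ctrl-Treg skin, with Adamts2 making up 25.9% to 41.0% in Lenv-Treg skin and 36.9% to 47.7% in Ctrl-Treg skin.

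The 4 inhibitor genes went in different directions. Timp1, a secreted inhibitor induced by inflammatory cytokines that also binds the Mmp9 precursor, was at 34.1, 86.8 and 91.0 FPKM in Lenv-Treg skin, against 13.9, 8.69 and 17.4 FPKM in Ctrl-Treg skin. It rose 5.30-fold (log2 difference 2.25, SE 0.39, adjusted p = 0.00388), with Lenv-Treg replicate 1 well below the other Lenv-Treg libraries. Timp2, which assists activation of the Mmp2 precursor by Mmp14, was at 243, 189.8 and 165 FPKM in Lenv-Treg skin, against 348, 269 and 241 FPKM in Ctrl-Treg skin. It was the most abundant of the 51 genes, its groups overlapped slightly, and it did not pass (log2 difference -0.52, SE 0.19, adjusted p = 0.066), but it was called lower in TPM (-0.81, adjusted p = 0.0151), under quantile normalization (-0.77, adjusted p = 0.0367) and without Lenv-Treg replicate 1 (-0.67, adjusted p = 0.0358). Timp3, which is bound to the matrix and inhibits ADAMTS enzymes besides MMPs, was at 41.9, 24.5 and 21.3 FPKM in Lenv-Treg skin, against 84.9, 91.8 and 71.6 FPKM in Ctrl-Treg skin. It fell to a ratio of 0.353 without overlap (log2 difference -1.52, SE 0.24, adjusted p = 0.00233). Timp4 was at 6.80, 11.0 and 9.98 FPKM in Lenv-Treg skin, against 5.93, 4.15 and 6.42 FPKM in Ctrl-Treg skin. It was called higher (log2 difference 0.65, SE 0.20, adjusted p = 0.034), and the call ended in TPM (0.43, adjusted p = 0.0802), without the filter (adjusted p = 0.0851) and without Ctrl-Treg replicate 1 or 2 or Lenv-Treg replicate 2 or 3 (adjusted p up to 0.113).

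The summed TIMP level was 325, 312 and 287 FPKM in Lenv-Treg skin, against 453, 373 and 336 FPKM in Ctrl-Treg skin. Timp1 made up 10.5%, 27.8% and 31.7% of that sum in Lenv-Treg skin and 3.06%, 2.33% and 5.19% in Ctrl-Treg skin. Timp3 made up 7.41% to 12.9% in Lenv-Treg skin and 18.8% to 24.6% in Ctrl-Treg skin. The ratio of summed MMP to summed TIMP FPKM was 2.18, 2.35 and 2.86 in Lenv-Treg skin, against 1.47, 1.26 and 1.53 in Ctrl-Treg skin. It did not overlap between groups, is a ratio of transcripts and not of active enzyme to inhibitor, and was not tested.

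Libraries of a group were not alike across the called genes. Among the 11 genes called higher, Lenv-Treg replicate 1 was the lowest of its group in 7, and Ctrl-Treg replicate 1 was the highest of its group in 7. Among the 10 genes called lower, Lenv-Treg replicate 1 was the highest of its group in 7 and Lenv-Treg replicate 3 the lowest in 7. Among the higher genes, Mmp11 and Mmp19 went against this order, with Lenv-Treg replicate 1 the highest at 51.0 and 23.3 FPKM. These orders were not tested or set beside those of all genes.

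Genes that act with the proteases were grouped by function. Each count below is to be read beside the 11% higher and 30.8% lower among all tested genes. In the list of the plasminogen system, proprotein convertases and cell-surface regulators, 7 of 17 tested members were higher and 4 lower (median 0.23). Plaur, the receptor of urokinase, was at 31.1, 59.1 and 52.5 FPKM in Lenv-Treg skin, against 6.85, 4.73 and 6.33 FPKM in Ctrl-Treg skin (2.76, adjusted p = 0.000208), and Serpinb2, a urokinase inhibitor, at 97.7, 103 and 91.2 FPKM in Lenv-Treg skin, against 25.0, 25.1 and 20.5 FPKM in Ctrl-Treg skin (2.00, adjusted p = 4.05e-05). Sdc1, a cell-surface proteoglycan, was higher (0.63, adjusted p = 0.00474), and Bsg, an inducer of MMP expression, did not pass (0.23, adjusted p = 0.125). Named after its values were seen, Reck, which encodes a membrane-anchored MMP inhibitor, was lower (-0.61, adjusted p = 0.0178). Among ADAM and astacin relatives, 4 of 13 were higher and 5 lower (median -0.21), with Adam8, a leukocyte sheddase, higher (2.54, adjusted p = 0.000185) and Adam12 lower (-1.04, adjusted p = 0.00141). Pcolce (-1.05) and Pcolce2 (-1.05), enhancers of procollagen C-proteinase, were lower as well.

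Cathepsins, lysosomal proteases that also degrade matrix, were higher in 7 of 8 genes and lower in 0 (median 0.55). This count and those below stand beside 11% higher and 30.8% lower among all tested genes. Ctsd was at 874 ± 63.0 FPKM in Lenv-Treg skin and 553 ± 75.0 FPKM in Ctrl-Treg skin (SD, n = 3 each; 0.66, adjusted p = 0.0141), Ctsb (0.65) and Ctsl (0.86) were higher, and Ctsk, a collagen-degrading cathepsin, did not pass (-0.20, adjusted p = 0.515). Of 19 tested matrix substrates 3 were higher and 9 lower (median -0.18), at summed levels of 1411 to 2300 FPKM in Lenv-Treg skin and 3321 to 4444 FPKM in Ctrl-Treg skin. Acan, which encodes aggrecan, was at 0.00648, 0.0386 and 0.00327 FPKM in Lenv-Treg skin, against 1.93, 2.23 and 2.50 FPKM in Ctrl-Treg skin (-1.66, adjusted p = 4.23e-05), and Fbn2, which encodes a fibrillin, at 0.315, 0.281 and 0.335 FPKM in Lenv-Treg skin, against 1.87, 1.70 and 2.01 FPKM in Ctrl-Treg skin (-1.13, adjusted p = 0.000126). Both lay wholly below the filter's minimum in Lenv-Treg skin and entered the test only through Ctrl-Treg skin. Fibroblast markers were lower in 9 of 13 genes and higher in 0 (median -0.92), while Dcn (0.19, adjusted p = 0.449) and Lum (-0.17, adjusted p = 0.376), the most abundant of them, did not pass. Markers of pericytes and smooth muscle were higher in 1 and lower in 5 of 10 genes, at 148 to 193 FPKM in Lenv-Treg skin and 244 to 320.4 FPKM in Ctrl-Treg skin. Activated keratinocyte markers were higher in 5 of 6 genes, at 8156 to 11760 FPKM in Lenv-Treg skin and 499 to 802 FPKM in Ctrl-Treg skin. Basal keratinocyte markers were higher in 5 and lower in 1 of 8 genes, at 6086 to 6219 FPKM in Lenv-Treg skin and 1469 to 1897 FPKM in Ctrl-Treg skin. Endothelial markers were higher in 2 and lower in 0 of 8, adipocyte markers higher in 0 and lower in 3 of 5, mast cell markers higher in 1 and lower in 1 of 5, and none of 5 skeletal muscle and 5 tested T cell markers passed. The part of these cell groups in the differences of MMP, ADAMTS and TIMP genes was not tested.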

How the data were processed

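The authors deposited 1 table of FPKM values for 6 skin libraries, 3 per group, and no deposited read counts were used. Per the labels' protocols, RNA was extracted with TRIzol and libraries were made with a VAHTS kit; per the submitters' processing notes the genome build was GRCm39. The aligner, counter and strand setting are not given in the sources at hand, so reads of antisense or overlapping genes cannot be told apart. Every value column matched a sample's labels.

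Genes with at least 0.5 FPKM in at least 3 libraries were tested with limma 3.58.1 (R 4.3.3, empirical Bayes with mean-variance trend) on log2(FPKM + 1), two-sided, with Benjamini-Hochberg adjustment over all 13945 tested genes and a threshold of 0.05. Single genes below the filter had a two-sided exact permutation test of mean FPKM, whose smallest p is 0.1. Whole reads were recovered from the FPKM steps for 13934 of 13945 tested genes (99.9%) and all 51 genes described. The fit was tested on simulated data.

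Alternatives changed the pseudocount, filter, scaling, variance model, threshold and libraries, and added the replicate number as a block; limma-voom on recovered reads was added after seeing the data. Values per library are given for all TIMP genes, the 3 most abundant genes per family, the 12 largest called differences and the tested collagenases, gelatinases and stromelysins, and from each pathway list for the 2 most abundant genes and the 2 others with the smallest p, or some of these; other genes were named after their values were seen. The genes and lists were chosen with earlier results of these data known.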

Additional observations from a re-analysis of the deposited data

How the results depend on the processing

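Of the 21 called genes, 16 kept their call and 0 reversed in the 17 alternatives, as far as they were tested in each. Adamts7, Adamts9, Mmp16, Mmp17 and Timp4 did not keep theirs. The cause was not tested for any value that follows. Over all tested genes, the higher count was 947 in TPM, 2417 after median-of-ratios scaling and 925 at a threshold of 0.01. The lower count was 7970 in TPM, 2417 after median-of-ratios scaling, 2304 after quantile normalization and 2246 at 0.01. The median of all tested genes was -0.027 with no filter, -0.44 in TPM, -0.0019 after median-of-ratios scaling and -0.010 after quantile normalization. For the 34 tested genes of the 3 families these medians were -0.090, -0.48, -0.034 and, with the sign turned, 0.015. For MMP genes they were 0.14, -0.21, 0.19 and 0.28, and with the stricter filter the median was 0.14 and 2 were lower. For ADAMTS-family genes they were -0.15, -0.62, -0.16 and -0.082, and 8 were lower with no filter. The TIMP median was -0.19 in TPM and 0.26 after median-of-ratios scaling. Of TIMP genes, 1 was higher with no filter, in TPM and at 0.01, and 2 were lower in TPM and after quantile normalization. Leaving out 1 library at a time, counts over all tested genes ranged over 1152 to 1447 higher and 2780 to 3900 lower (2780 without Lenv-Treg replicate 2), and among the 51 genes over 9 to 11 higher and 8 to 11 lower; the ranges were 1 to 2 higher and 1 to 2 lower for TIMP genes, -0.30 to -0.061 for the median of the 34 genes, -0.066 to 0.15 for MMP genes and -0.032 to 0.17 for TIMP genes. Genes without a call changed sign in some fits: Adamts4 was 0.16 after median-of-ratios scaling and 0.24 after quantile normalization (-0.064 to 0.11 on leaving out 1 library), Adamts5 -0.097 and Mmp28 -0.078 in TPM (Mmp28 was called higher, at 0.40, after quantile normalization), Adamtsl1 0.098 after quantile normalization (-0.35 to 0.030 on leaving out 1 library), and Mmp15 0.075 after median-of-ratios scaling and 0.15 after quantile normalization (-0.27 to 0.061 on leaving out 1 library). limma-voom on the recovered reads, chosen after seeing the data, called 1537 genes higher and 4327 lower, and 11 and 10 of the 51 genes. The labels do not say whether the replicate numbers pair the samples, and pairing was not tested. Same-numbered libraries deviated together with r of 0.196, -0.011 and 0.328. Differently numbered libraries across the groups did so with r of -0.28 to 0.084. With the number as a replicate block 1637 genes were higher and 4270 lower, and of the 51 genes 10 were higher and 12 lower, with 2 TIMP genes lower; Adamts7 lost its call (adjusted p = 0.0527), and Timp2 (0.0086) and Adamts2 (0.00576) gained one. Depth limits the genes with few reads, such as Mmp10 (0 to 35 per library) and Mmp1a (0 to 24).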
